A study of Mus musculus with 12 samples.

Results

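Retinoid handling was followed through 9 genes in tongue RNA: Crabp1, Crabp2, Rbp4, Rdh10, Dhrs3, Aldh1a1, Aldh1a2, Aldh1a3 and Cyp26b1. They were listed by name, as Crabp1 together with other retinoid carriers and enzymes, and make up 9 of the 32498 named genes in the data. The list was chosen by the FPKM values of Crabp1, which differed between the groups, so that the contrast of the groups is given here for the members as a description, without a test. C57BL/6 mice, bought at 5 weeks of age, drank the carcinogen 4-nitroquinoline 1-oxide (4NQO) at 100 µg/mL for 16 weeks. From week 4 they were gavaged 5 times per week, either with gallic acid (GA), a plant phenolic acid, at 100 mg/kg or with vehicle, a solution of methyl cellulose and Tween-20 (the GA stock was made in DMSO). All mice of both groups thus carried the 4NQO exposure, no animal free of it was measured, and the age at sacrifice is not given in the sources used here. Bulk RNA-seq was made from tongue described as tumor and tumor-associated, with 6 Vehicle libraries and 6 GA libraries. The labels number the libraries but name no animals, so the spread between libraries may be partly technical.

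Vitamin A reaches epithelia as retinol, carried in plasma by retinol binding protein. Inside the cell retinol is oxidised reversibly to retinal and then irreversibly to retinoic acid, the ligand of the nuclear receptors RAR and RXR. Cellular carriers hold retinoic acid in the cytosol, and cytochromes of the CYP26 family break it down. Squamous epithelia such as that of the tongue depend on this balance for their pattern of keratinization. Of the members, Rbp4 encodes the plasma carrier of retinol, and Crabp1 and Crabp2 encode the cytosolic carriers of retinoic acid. Rdh10 oxidises retinol to retinal, Dhrs3 reduces retinal back to retinol, Aldh1a1, Aldh1a2 and Aldh1a3 oxidise retinal to retinoic acid, and Cyp26b1 hydroxylates retinoic acid for disposal.

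The deposited values are FPKM, reads divided by library total and gene length, and they were rescaled between libraries by factors of 0.914 to 1.08 (scaled FPKM below). Library totals recovered from the FPKM steps lay between 18040297 and 21770509 reads in the Vehicle group and between 21237646 and 25192663 in the GA group. The tissue label matched its markers in that all 10 oral epithelium and all 10 skeletal muscle markers had reads in every library. Lipf, a lipase of the lingual glands, marked 3 libraries that stood apart from the other 9, namely Vehicle libraries 3 and 5 and GA library 2. Reads of Y-linked genes were present in 4 of 6 Vehicle and 1 of 6 GA libraries. In bulk tissue, fewer cells of a type and less RNA per cell cannot be told apart.

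Promoter sequences are shown for 3 members: Crabp1 and Cyp26b1, whose 6 GA libraries all lay below the Vehicle median, and Aldh1a1, which varied with muscle markers. RefSeq promoter windows (GRCm38.p6, 250 bases before to 50 after a start) were found for 6 of the 9 members, and not for Crabp2, Rdh10 and Aldh1a3. Capitals mark the letters GGGCGG (a GC box), TATAAA, and 4 core hexamers of retinoic acid response elements, AGGTCA with its forms AGTTCA as well as GGGTCA and also GGTTCA, each read on both strands. Only the part before the start is printed, 5′ to 3′ on the gene's strand, and for Cyp26b1 it ends before the gene's start in GENCODE, which lies farther upstream than the RefSeq start of its window. Crabp1 is at chr9:54764498-54764747 (plus strand), Cyp26b1 at chr6:84593909-84594060 (minus strand) and Aldh1a1 at chr19:20601718-20601967 (plus strand).
Crabp1: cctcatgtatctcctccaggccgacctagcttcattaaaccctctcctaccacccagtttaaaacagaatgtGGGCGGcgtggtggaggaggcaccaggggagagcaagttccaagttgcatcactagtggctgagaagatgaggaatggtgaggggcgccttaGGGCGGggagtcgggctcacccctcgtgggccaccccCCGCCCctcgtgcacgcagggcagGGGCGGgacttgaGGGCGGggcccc
Cyp26b1: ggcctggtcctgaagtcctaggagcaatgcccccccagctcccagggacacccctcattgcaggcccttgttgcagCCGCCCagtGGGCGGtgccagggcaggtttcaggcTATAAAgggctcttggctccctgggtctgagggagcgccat
Aldh1a1: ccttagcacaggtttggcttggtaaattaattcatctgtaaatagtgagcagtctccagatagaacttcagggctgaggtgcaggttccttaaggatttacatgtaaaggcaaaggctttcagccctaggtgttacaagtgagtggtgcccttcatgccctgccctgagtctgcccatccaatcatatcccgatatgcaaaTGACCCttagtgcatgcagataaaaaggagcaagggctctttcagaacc
The Crabp1 window held GGGCGG or its reverse CCGCCC at 5 places, starting at -178, -86, -49, -25 and -12 from the start, and neither TATAAA nor a core hexamer. GGGCGG is a common sequence and was found in 35.7% of the 32851 promoter windows of the same length. The Cyp26b1 window held TATAAA, which 13.6% of windows held, and 3 GC boxes, of which 2 lie in the part printed and 1, at -34 from the RefSeq start, does not. The Aldh1a1 window, at a start inside the span of the longer annotated gene, held TGACCC at -49, which is GGGTCA on the other strand. At least 1 of the 4 core hexamers was present in 43.7% of windows, and among the members in 1 window each of Aldh1a1 and Rbp4. Both genes have a further window that held none, for Aldh1a1 at chr19:20492333-20492632. The windows found for the other members held none either. No member's window held 2 core hexamers as a direct repeat spaced by 1, 2 or 5 bases, against 0.222%, 0.268% and 0.0974% of all windows. These matches describe letters only and say nothing of binding.

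Levels of the members spanned a wide range, and the carriers of retinoic acid stood at the top. By mean scaled FPKM over the 12 libraries, Crabp2 (49.3) and Crabp1 (25.4) led, at percentiles 94.8 and 89.7 of the 16852 genes tested. FPKM are per gene length, but the lengths the authors used are not given, so levels of different genes compare only roughly. Aldh1a1 (8.30), Dhrs3 (8.15), Cyp26b1 (7.60) and Rdh10 (5.19) followed, and Aldh1a3 (3.54), Aldh1a2 (1.37) and Rbp4 (0.888) were lowest. Some neighbours in this order held their places in nearly every library. Crabp2 was above Crabp1 in 11 of 12 libraries, all but Vehicle library 1, Crabp1 was above Aldh1a1 in 12 of 12, and Cyp26b1 was above Rdh10 in 11 of 12. Others changed places from library to library, since Aldh1a1 was above Dhrs3 in 6 of 12, Dhrs3 above Cyp26b1 in 7 of 12 and Aldh1a2 above Rbp4 in 7 of 12.

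**Figure D1:**
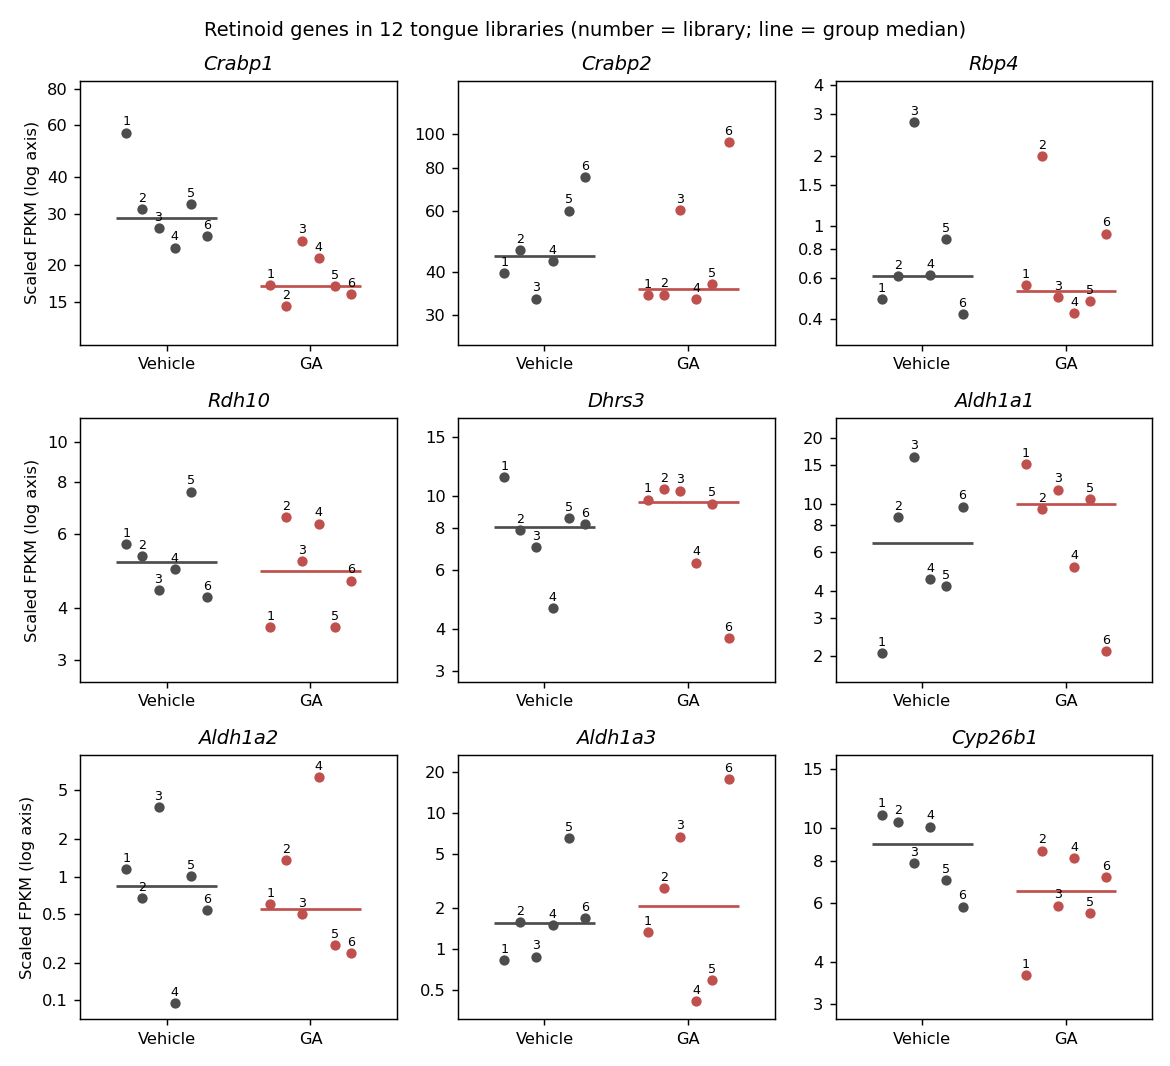
Scaled FPKM (log axis) of the 9 retinoid genes in the 6 Vehicle (grey) and 6 GA (red) libraries, numbered as in the labels, with a line at each group's median. Crabp1 is lower in all 6 GA libraries than the Vehicle median, while the highest library exceeds the lowest by a ratio of 66.9 for Aldh1a2 and 42.9 for Aldh1a3.

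Crabp1 (chr9:54764748-54773110, GRCm38, plus strand) showed the clearest separation of the libraries among the 9 genes, and it is the gene the list was built around. In the Vehicle group its scaled FPKM was 56.6, 30.97, 26.7, 23.0, 32.4 and 25.1 in libraries 1 to 6, from 415 to 824 reads each. In the GA group it was 17.1, 14.5, 24.3, 21.2, 16.9 and 16.0, from 262 to 460 reads. All 6 GA libraries were below the Vehicle median of 28.9, and 5 of 6 were below every Vehicle library, while GA library 3 (24.3) overlapped with Vehicle library 4 (23.0). Means were 32.5 ± 12.4 and 18.3 ± 3.66 (SD, n = 6 each), a difference on the log2 scale of -0.77 ± 0.21 (SE, limma). Over all tested genes, 0.326% had at least 5 GA libraries below every Vehicle library, and 0.0653% had groups that did not overlap at all. Since these libraries chose Crabp1, nothing is read from its place among them.

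Leaving out each library in turn gave Crabp1 a log2 difference between -0.86 and -0.60, with the smallest size without Vehicle library 1, the highest of all 12. As Crabp1 was chosen on these same values, this range describes them and supports nothing further. The libraries with Y-linked reads were unevenly divided between the groups. Crabp1 was at 23.0 to 56.6 scaled FPKM in the 4 Vehicle libraries with such reads and at 17.1 in GA library 1, the single GA library with them. It was at 25.1 and 32.4 in the 2 Vehicle libraries without them and at 14.5 to 24.3 in the other 5 GA libraries. The 10 neutrophil markers summed to 1108 to 2618 scaled FPKM with vehicle and 235 to 1831 with GA, ranges that overlapped widely. S100a8 and S100a9 weighed most in these sums, at 1013 and 1594 in Vehicle library 6, where Retnlg and Mmp8 were at 0. The mean log2 level of the list differed by -0.88 (SD 1.65 with vehicle and 0.98 with GA, not tested). With group means subtracted, the r of Crabp1 was -0.413 to neutrophil, -0.602 to endothelial, -0.509 to skeletal muscle and 0.445 to oral epithelium markers. It was -0.453 to macrophage and -0.435 to fibroblast markers. Without the 2 libraries farthest out in each list, r became 0.364 to endothelial, -0.146 to skeletal muscle and -0.083 to oral epithelium markers. For neutrophil, macrophage and fibroblast markers it was then -0.481, -0.464 and -0.610. No relation of Crabp1 to a marker list passed an adjusted p of 0.1 (permutation test). The part of sex or of the make-up of the tissue in the Crabp1 level was not tested.

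Crabp2 (chr3:87948666-87953376), which carries retinoic acid to its nuclear receptors, overlapped between the groups. Its scaled FPKM ranged from 33.5 to 75.2 with vehicle (median 44.6) and from 33.3 to 94.8 with GA (median 35.7). The log2 difference was -0.09 ± 0.28, and it was -0.40 ± 0.28 with a term for sex, read from Y-linked genes, where that of Crabp1 was -0.74. GA library 6 held the highest level of the 12. The ratio of Crabp2 to Crabp1 levels was 0.702 to 3.002 with vehicle (median 1.67) and 1.57 to 5.93 with GA (median 2.28). Vehicle library 1 was the only library of the 12 with more Crabp1 than Crabp2.

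Rbp4 (chr19:38116629-38125281, minus strand), the plasma retinol carrier made chiefly by liver and fat, was near the lower end of measurement in most tongue libraries. Between 12 and 73 reads of it were counted in the Vehicle libraries and between 13 and 61 in the GA libraries. Its scaled FPKM was 2.78 in Vehicle library 3 and 1.99 in GA library 2, and 0.420 to 0.928 in the other 10. The log2 difference was -0.13 ± 0.45, and it turned to 0.22 without Vehicle library 3. Both high libraries are among the 3 with high Lipf, but Vehicle library 5, the other one, was at 0.878.

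The enzymes that pass retinol to retinal and back were among the steadier members. Rdh10 (chr1:16105774-16133734) ranged from 4.24 to 7.60 scaled FPKM (median 5.15) in the Vehicle group and from 3.59 to 6.60 (median 4.91) in the GA group, with a log2 difference of -0.11 ± 0.19. Dhrs3 (chr4:144892827-144928209) was at 4.63 to 11.4 with vehicle (median 8.06) and 3.77 to 10.4 with GA (median 9.61), with a log2 difference of 0.03 ± 0.27. For both genes the groups overlapped, and the Vehicle median lay above 3 of 6 GA libraries for Rdh10 and above 2 of 6 for Dhrs3. Their SD within groups, 0.34 and 0.50 on the log2 scale, compares with a median of 0.39 over all tested genes.

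The 3 retinal dehydrogenases varied far more between libraries of the same group than between the groups. Aldh1a1 (chr19:20492715-20643465) was at 2.07, 8.67, 16.4, 4.53, 4.21 and 9.71 scaled FPKM in Vehicle libraries 1 to 6 and at 15.1, 9.45, 11.6, 5.15, 10.5 and 2.11 in GA libraries 1 to 6. Its log2 difference was 0.29 ± 0.53 and fell to -0.013 without Vehicle library 1. Of the 31-base stretches of its transcripts, 5.7% also occur in its neighbour Aldh1a7, where uniquely mapped reads cannot be counted.

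Aldh1a2 (chr9:71215789-71296243) was at 0.0954 to 3.66 with vehicle (median 0.843) and 0.239 to 6.38 with GA (median 0.546). The lowest value came from 5 reads in Vehicle library 4, and the highest from 332 reads in GA library 4, a ratio of 66.9. Aldh1a3 (chr7:66390890-66427517, minus strand) was at 0.830 to 6.50 with vehicle (median 1.54) and 0.412 to 17.7 with GA (median 2.07). GA library 6 held its highest level and GA library 4 its lowest, a ratio of 42.9, so that the extremes of Aldh1a3 both lay in the GA group. The log2 differences were 0.00 ± 0.78 for Aldh1a2 and 0.44 ± 0.81 for Aldh1a3, and the latter was -0.14 without GA library 6. The SD within groups was 1.03, 1.49 and 1.57 on the log2 scale for Aldh1a1, Aldh1a2 and Aldh1a3, at percentiles 89.6, 96.1 and 96.6 of all tested genes.

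**Figure D2:**
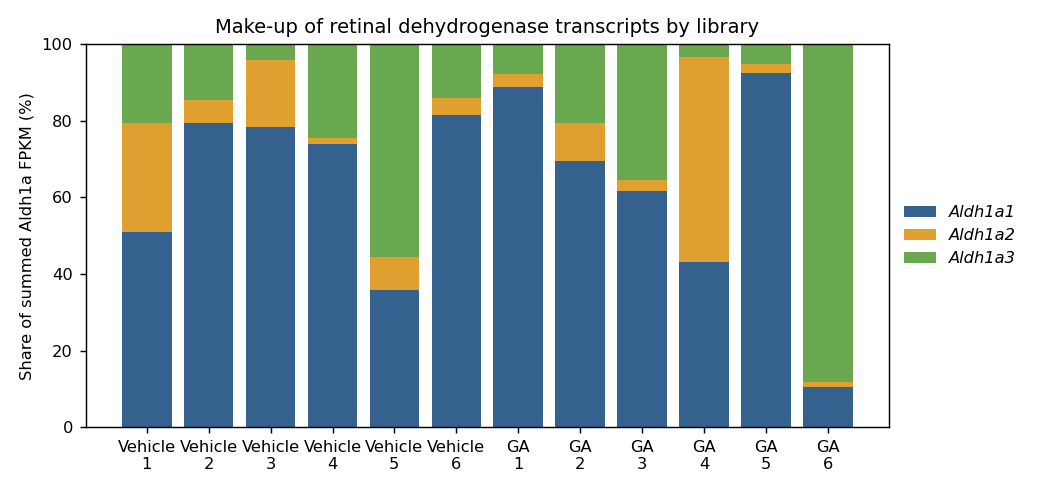
Share (%) of the summed FPKM of Aldh1a1 (blue), Aldh1a2 (orange) and Aldh1a3 (green) in each of the 12 libraries. Aldh1a1 holds the largest share in 9 libraries, Aldh1a3 in Vehicle library 5 and GA library 6, and Aldh1a2 in GA library 4.

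Different enzymes made up the retinal dehydrogenase transcripts in different libraries. Aldh1a1 was the highest of the 3 in 5 of 6 Vehicle and 4 of 6 GA libraries, with shares of their summed FPKM up to 92.3% in GA library 5. Aldh1a3 led with 55.5% in Vehicle library 5 and 88.3% in GA library 6, where Aldh1a1 had 10.5%. Aldh1a2 led with 53.4% in GA library 4 and had 1.19% in GA library 6. The summed level was 4.05 to 20.98 with vehicle (median 11.3) and 11.3 to 20.0 with GA (median 15.3), so that the sum ranged less widely than Aldh1a2 or Aldh1a3 alone. The libraries led by Aldh1a2 or Aldh1a3 came from both groups.

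Cyp26b1 (chr6:84571414-84593908, minus strand), the hydroxylase that clears retinoic acid, was the second member with every GA library below the Vehicle median. Its scaled FPKM was 11.0, 10.4, 7.86, 10.1, 6.995 and 5.84 in Vehicle libraries 1 to 6, from 672 to 1257 reads. In GA libraries 1 to 6 it was 3.66, 8.57, 5.88, 8.14, 5.59 and 7.15, from 422 to 1062 reads. The groups overlapped, since only GA libraries 1 and 5 lay below every Vehicle library. Means were 8.70 ± 2.09 and 6.50 ± 1.83 (SD, n = 6 each), with a log2 difference of -0.43 ± 0.22, below the limit of 0.58. Leaving out each library in turn gave -0.54 to -0.28, the smallest size without GA library 1. To have all 6 GA libraries below the Vehicle median is not particular to Crabp1 and Cyp26b1. Rbp2, Scarb1 and Cyp26a1, tested genes of the pathway lists below, had it too, Scarb1 at a log2 difference of -0.02 ± 0.25. Its share over all tested genes was not counted, so nothing is read from it.

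**Figure D3:**
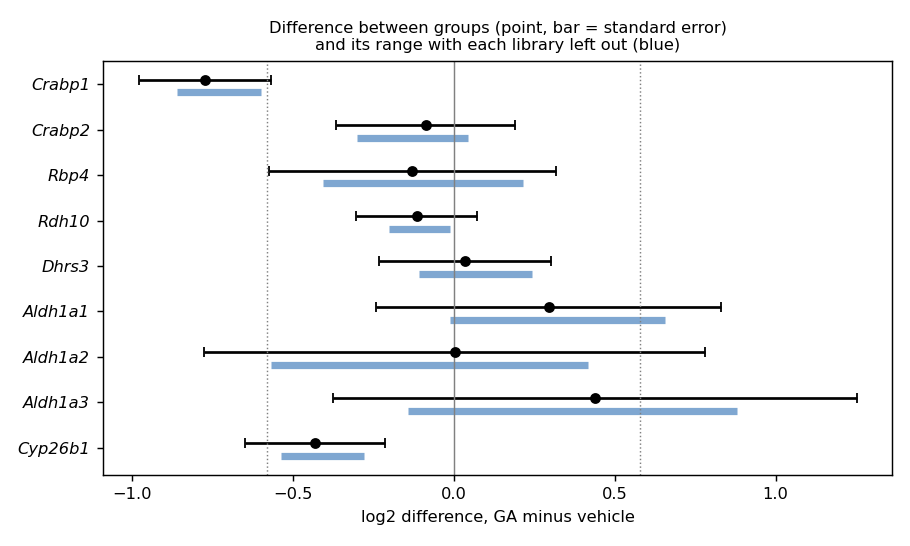
Difference between GA and Vehicle for each retinoid gene on the log2(scaled FPKM + 0.1) scale, with its standard error (black) and the range when each library is left out in turn (blue bar). Dotted lines mark the limit of 0.58, and the difference of Crabp1 (-0.77) is the one whose range (-0.86 to -0.60) stays beyond it. Crabp1 was chosen on these same values, so nothing is read from that range.

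The study's limits for a change were an adjusted p below 0.1 and a log2 fold change of at least 0.58 either way. In the limma fit over all genes, 0 of the 9 members passed both, and 0% of the 16852 tested genes did (0 genes). At an unadjusted p under 0.05 without a fold limit there were 364 genes, or 2.16%, and limma-voom on the recovered reads also called 0 genes. With an unadjusted p below 0.1 in place of the adjusted one, 1 of the 9 members (Crabp1, lower with GA) passed beside 1.95% of all genes, or 1.05% counting those lower with GA, and since Crabp1 chose the list nothing is read from it. All 9 members passed the filter of a mean of 0.1 FPKM. Of the members, 4 were higher and 5 lower with GA, with a median log2 difference of -0.09, beside 0.0042 over all tested genes. As the members were chosen with this contrast known, the median is a description.

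Other genes of the pathway were read from the same fit in 5 lists, 58 genes in all, of which 44 passed the expression filter. None of the 44 passed the study's limits, and 21 were higher and 23 lower with GA, with a median log2 difference of -0.013. Every adjusted p was 1.00 in limma, and 2 genes, Dgat1 and Nrip1, had an unadjusted p under 0.05. In each sentence below a value is a log2 difference of GA minus vehicle, with its SE.

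Of the 13 genes for uptake, transport and storage of retinoids, 10 were tested, 1 higher and 9 lower with GA, and 0 passed the limits. Their median difference was -0.33. Over all tested genes 50.9% were higher with GA, and the count of directions in this list was not tested. Fabp5, a fatty acid carrier that also binds retinoic acid, was the most abundant pathway gene and did not pass the limits at -0.41 ± 0.23 (Vehicle and GA means 1084 ± 229 and 827 ± 245 scaled FPKM). Rbp2, a cellular retinol carrier, differed by -0.34 ± 0.16, with 202 scaled FPKM in Vehicle library 1 and 84.5 to 123 in the other 11 libraries. Rbp7, a further cellular retinol carrier, spread widely (-0.03 ± 0.51). Dgat1, which can esterify retinol, was at 5.78 ± 1.43 with vehicle and 4.22 ± 1.03 with GA, a difference of -0.44 ± 0.19 that did not pass the limits.

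Of the 18 other oxidoreductases of retinol and retinal, 12 were tested, 9 higher and 3 lower, with a median difference of 0.08. Adh7, an alcohol dehydrogenase of upper digestive epithelium that oxidises retinol, had means of 233 ± 79.9 (Vehicle) and 230.3 ± 98.5 scaled FPKM (GA) (-0.07 ± 0.31). Its level was thus far above that of Rdh10 in both groups. Rdh12 (0.08 ± 0.24), Sdr16c5 (0.09 ± 0.33) and Sdr16c6 (-0.24 ± 0.35), short-chain dehydrogenases, followed in level. None passed the limits.

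The 2 other hydroxylases of retinoic acid were both low in expression. Cyp26a1 had means of 0.283 ± 0.253 (Vehicle) and 0.0865 ± 0.0754 scaled FPKM (GA), a difference of -0.85 ± 0.47. All 6 GA libraries were below its Vehicle median of 0.234, but its values overlapped, from 0.0472 to 0.660 in the Vehicle group and from 0 to 0.197 in the GA group, on at most 29 reads. Cyp26c1 was at 0.155 ± 0.131 and 0.0670 ± 0.116 (-0.60 ± 0.48), and neither passed the limits. Cyp26b1 was therefore the hydroxylase with by far the highest level in this tissue, above the other two in 12 of 12 libraries.

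Among the 12 receptors and cofactors, all tested, 7 were higher and 5 lower, with a median difference of 0.06. The receptor genes Rxra (-0.06 ± 0.10) and Rarg (0.22 ± 0.19) were the most abundant, with means of 34.6 and 30.6 (Vehicle) and of 33.2 and 34.6 scaled FPKM (GA). Ppard (-0.08 ± 0.17), a receptor that can be served by Fabp5, came next. None of these 3 passed the limits. Of 18 genes known to be induced by retinoic acid, 13 were tested, 5 higher and 8 lower, with a median difference of -0.014. Zfp703 (-0.014 ± 0.22), Tgm2 (0.12 ± 0.49) and Nrip1 (-0.40 ± 0.17), which encodes a receptor-interacting corepressor, were among the most abundant. The induced list also holds Cyp26a1, Stra6, Lrat and Rarb from the other lists, so that the lists are not independent of each other.

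**Figure D4:**
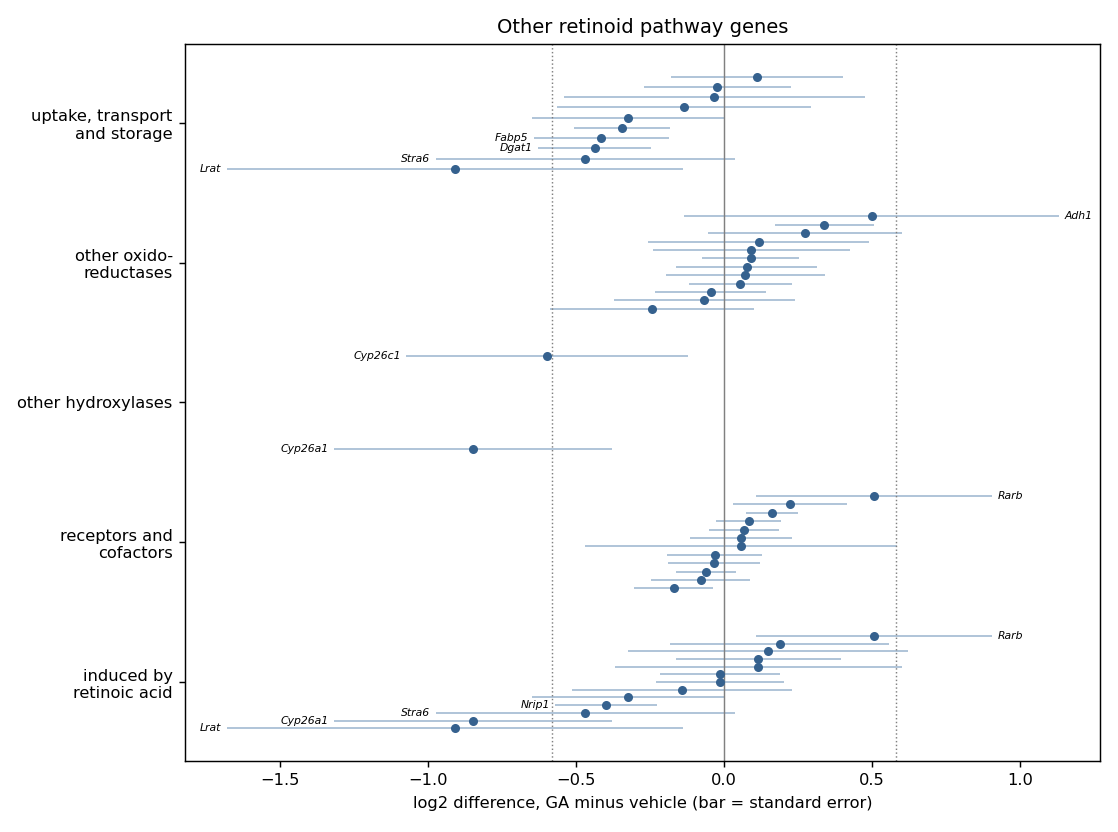
Log2 difference of GA minus Vehicle (points) with its standard error (lines) for the tested genes of 5 retinoid pathway lists, with names for genes beyond 0.39 in size. Dotted lines mark 0.58, and none of the genes passed the study's limits. Of the 10 transport genes, 9 lie below 0, with Scarb1 (-0.02) and Rbp7 (-0.03) close to it, a count that was not tested.

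How the members varied together was examined apart from the contrast, with each group's mean subtracted. Of the 36 pairs of members, 0 passed an adjusted p of 0.1 in a two-sided permutation test over the 12 libraries (100000 shuffles within groups), and 1 had an unadjusted p under 0.05. That pair was Crabp2 and Aldh1a3, with Pearson's r = 0.812 (permutation p = 0.00442, adjusted p = 0.159) and Spearman's rho = 0.748 (permutation p = 0.0115, adjusted p = 0.413). Without the 2 libraries farthest from the Crabp2 median, both numbered 6, r was 0.824. Within the groups r was 0.622 with vehicle and 0.888 with GA. GA libraries 6 and 3 and Vehicle library 5, the highest in Aldh1a3, were among the 4 highest in Crabp2. When single libraries were left out, r ran from 0.662 (without GA library 6) to 0.896 (without Vehicle library 6). The adjusted p in the permutation test was 0.0401 and 0.0331 without Vehicle library 5 or 6, and 0.186 to 0.733 without each of the other 10, the highest without GA library 6.

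Rdh10, which makes retinal, and Cyp26b1, which hydroxylates retinoic acid, had r = 0.566 (permutation p = 0.0755, adjusted p = 0.750) and rho = 0.601 (permutation p = 0.0585, adjusted p = 0.582). Vehicle library 5, highest in Rdh10 and low in Cyp26b1, lay off this relation, and without it r was 0.837 (permutation, adjusted p = 0.0389). Without GA library 1 it was 0.418 (permutation, adjusted p = 0.776), and within the groups r was 0.133 with vehicle and 0.846 with GA. Crabp1 had no pair with an r above 0.469 in size, and its highest was with Dhrs3 (adjusted p = 0.750 in the permutation test).

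**Figure D5:**
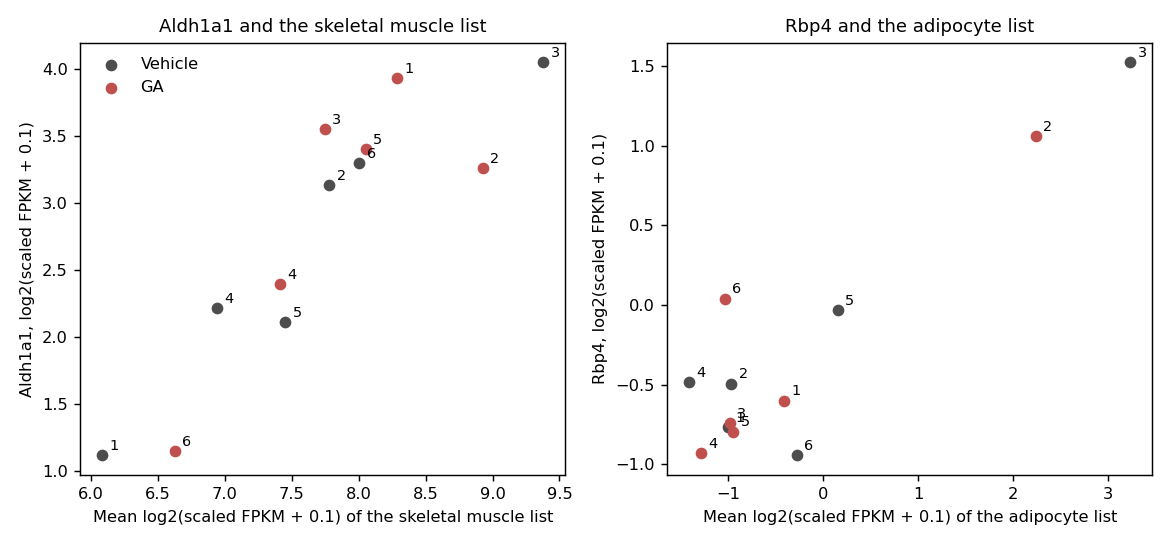
Level of Aldh1a1 against the mean level of 10 skeletal muscle markers (left) and of Rbp4 against the mean level of 7 adipocyte markers (right), both as log2(scaled FPKM + 0.1), in 6 Vehicle (grey) and 6 GA (red) libraries with their numbers. Aldh1a1 climbs along the whole range of the muscle markers, whereas Vehicle library 3 and GA library 2 lie apart from the other 10 in the right plot.

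Each member was also compared with 8 tissue marker lists, 72 relations in all, of which 3 passed an adjusted p of 0.1, all of them of Aldh1a1. Aldh1a1 rose and fell with skeletal muscle markers within both groups, at r = 0.886 (permutation p = 0.00034, adjusted p = 0.0245) and rho = 0.839 (permutation p = 0.00188, adjusted p = 0.135). Within the groups r was 0.959 with vehicle and 0.809 with GA, it was 0.816 without Vehicle libraries 1 and 3, which lay farthest out, and 0.964 without the 3 libraries with high Lipf. The 10 muscle markers, all detected in all libraries, summed to 1467 to 12573 scaled FPKM with vehicle and 2193 to 9649 with GA. The lowest Aldh1a1 levels, in Vehicle library 1 and GA library 6, were in the 2 libraries with the lowest muscle markers. Without Vehicle library 1 or GA library 6 the adjusted p was 0.120 and 0.142, so that the call depends on these libraries.

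This tie was shared by many genes and is not particular to Aldh1a1, since 4.64% of the 12166 genes averaging at least 1 FPKM had an r to the muscle markers at least as high. Aldh1a1 also varied with endothelial markers at r = 0.735 (permutation p = 0.00363, adjusted p = 0.0905) and rho = 0.741 (permutation p = 0.00843, adjusted p = 0.303). With nerve sheath markers r was 0.800 (permutation p = 0.00377, adjusted p = 0.0905) and rho was 0.657 (permutation p = 0.0323, adjusted p = 0.388). Without the 2 farthest libraries r was 0.590 and 0.663, and 6.96% and 3.73% of genes were tied to these lists as closely. Leaving out 1 library ended the endothelial call in 11 of 12 cases and the nerve sheath call in 10 of 12. With a term for muscle markers in the fit, the log2 difference of Aldh1a1 between the groups was 0.07 ± 0.26 (SE), beside 0.29 ± 0.53 without it. The part that the share of muscle, vessel or nerve in a sample has in the Aldh1a1 level was not tested.

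Rbp4 and the mean level of 7 adipocyte markers had r = 0.907 (permutation p = 0.00734, adjusted p = 0.114) and rho = 0.524 (permutation p = 0.109, adjusted p = 0.603), and the value rests on Vehicle library 3 and GA library 2. Without these 2 libraries r was 0.236, and without the 3 libraries with high Lipf it was -0.233. The 8 adipocyte markers, with Lep, which was too low for the mean, summed to 141 and 92.7 scaled FPKM in these 2 libraries and to 15.8 to 49.6 in the other 10. Adipoq, Plin1, Lep, Cfd and Retn, 5 of the 8 markers, were listed at 0 in at least 1 library of each group, while Fabp4 and Lpl had reads in all 12. Rbp4 also varied against oral epithelium markers (r = -0.788, permutation p = 0.00792, adjusted p = 0.114, rho = -0.671, permutation p = 0.0296, adjusted p = 0.388), which was r = -0.002 without the 3 libraries with high Lipf.

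The genes most like each member over the 12 libraries, again with group means subtracted, were sought among 12166 genes by Pearson's r, as a description. Among the closest to Crabp1 were Elmod1 (0.913), Sp9 (0.910), Ankrd22 (0.902) and Hrnr (0.899), the last encoding hornerin, a protein of cornified epithelium. Aldh1a1 had the closest neighbours of all members, with Crat (0.980), Mrpl23 (0.979) and Decr1 (0.978), of which Crat and Decr1 encode mitochondrial enzymes of carnitine and fatty acid metabolism. Closest to Rbp4 were Plec (0.938), Myh1 (0.917), a myosin heavy chain of fast muscle, and Chia1 (0.917). The other nearest genes were Cep164, Fignl1 and Rgs10 for Crabp2, Nus1, Creld2 and Slc30a5 for Rdh10, and Psenen, Arhgef19 and Smdt1 for Dhrs3. For Aldh1a2 they were Herpud1, Mocs3 and Ccdc85b, for Aldh1a3 Hnrnpc, Gm6682 and Samd12, and for Cyp26b1 Mfsd2a, Gm15542 and Nme1.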

How the data were processed

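Per the methods of the study, the authors used HISAT2 for alignment (mm10), featureCounts for gene counts of uniquely mapping reads, and edgeR to call changes. The deposited values are FPKM, and how the authors computed them is not given in the sources used here. Rows without a gene name (41.4% of 55463 rows, 16.2% to 25.5% of the FPKM sum) were left out. Scaling factors between libraries were trimmed means of log ratios (30% of ratios and 5% of levels trimmed). The 16852 genes that averaged 0.1 FPKM or more were fitted with limma 3.58.1 in R 4.3.3 on log2(scaled FPKM + 0.1), which understates the change of low genes, since FPKM are no counts. Limits were those of the study, a Benjamini-Hochberg adjusted p below 0.1 and a log2 fold change of at least 0.58. Whole reads were recovered from the FPKM steps with exon lengths of GENCODE M21, less a length offset fitted per library (17.0 to 24.2 bases). Of the low values, 97.7% to 98.4% came out whole within 0.02 reads. Marker lists were scored by the mean log2 level of their genes that passed the filter. Correlations used the 12 libraries after subtracting group means, with 100000 shuffles within groups and adjustment over 36 pairs or 72 relations. Positions come from GENCODE M21 (GRCm38), matched by symbol, and promoters from RefSeq. The members and lists were chosen with earlier results of these data known. Apart from the 9 members, genes were named as the 4 most abundant of each list, any with an unadjusted p under 0.05 or past the limits, and the 5 (Crabp1) or 3 genes nearest to a member, of which a few are not reported here. The fit was tested on simulated data. Alternatives were other pseudocounts, filters, scalings and limma settings, terms for sex (from Y-linked reads), gland, neutrophil, fibroblast and muscle markers, a replicate block, limma-voom on recovered reads, and leaving out each library.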

Additional observations from a re-analysis of the deposited data

Results flagged for a closer look

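Among groups of 6 libraries, a value was marked where the gap of its highest or lowest library to the nearest other, divided by the range of the group, was above Dixon's 95% limit for 6 values. Of 36 groups of values, the 9 retinoid genes and 9 marker lists in both treatments, 6 were marked (16.7%). Chance marks about 1 in 20 where groups are independent, but these are not. All marks except that of Aldh1a3 lay in Vehicle library 3 or GA library 2. GA library 2 was already known to stand apart in gland markers, so no excess over chance is read from the share. Rbp4 in Vehicle library 3 was the highest of its group (gap share 0.631), at 1.53 on the log2 scale against -0.03 in the nearest library. Aldh1a3 in Vehicle library 5 was marked likewise (0.668), at 2.72 against 0.83. Of the marker lists, adipocyte markers were marked in Vehicle library 3 (0.663) and in GA library 2 (0.750), and GA library 2 was also marked for neutrophil markers (0.719) and for gland and taste bud markers (0.894). The highest Rbp4 level of the GA group lay in GA library 2 as well, but its gap was not above the limit. The part of these markers in the Rbp4 level was not tested.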

How the results depend on the processing

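The count of genes past the study's limits was 0 under every alternative except without Vehicle library 4, where it was 1 (range 0 to 1 without single libraries), and except at unadjusted p below 0.1, where it was 328 (1.95% of genes), with Crabp1 as 1 of the 9 members and Cyp26a1 as 1 pathway gene. Crabp1 and Cyp26b1 were lower with GA under each alternative run, and with sex, gland, neutrophil, fibroblast and muscle terms the difference of Crabp1 was -0.74, -0.80, -0.88, -0.83 and -0.73. As Crabp1 was chosen on these same values, and the members with this contrast known, the refits describe these values and support nothing further. The sex term moved Crabp2 to -0.40. Small differences changed sign: Rbp4 became 0.061, 0.069 and 0.0013 with gland, neutrophil and fibroblast terms, Rdh10 0.0097 and Dhrs3 -0.015 with the neutrophil term, and Dhrs3 -0.0015 with the muscle term. Aldh1a2 became -0.0015 with upper quartile scaling, and -0.042, -0.11 and -0.13 with sex, neutrophil and muscle terms, and Aldh1a3 -0.18 with the sex term. Without single libraries the differences ran from -0.86 to -0.60 (Crabp1), -0.30 to 0.043 (Crabp2), -0.41 to 0.22 (Rbp4), -0.20 to -0.011 (Rdh10), -0.11 to 0.24 (Dhrs3), -0.013 to 0.65 (Aldh1a1), -0.57 to 0.42 (Aldh1a2), -0.14 to 0.88 (Aldh1a3) and -0.54 to -0.28 (Cyp26b1). Pairs of members called numbered 0, but 1 without scaling and 0 to 2 without single libraries. Relations to marker lists called numbered 3, but 1 with a pseudocount of 1, 1 without scaling, and 0 to 3 without single libraries. The r of Rbp4 to adipocyte markers became -0.233 without the 3 libraries with high Lipf. The cause of these changes was not tested.

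The replicate numbers did not pair the libraries: same-numbered libraries correlated at -0.37 to 0.08 after group means were subtracted, and 0 of 6 matched their own number best. With the numbers as a replicate block the log2 difference of Crabp1 was -0.77, and 0 genes were called. The r of Aldh1a1 to muscle markers was then 0.852 (permutation, adjusted p = 0.471), and 0 relations to lists were called. These relations rested on 6 differences between same-numbered libraries, with 720 permutations. After adjustment over 72 relations, 1 relation alone could not pass the limit, so nothing is read from the 0 relations. Depth limits Rbp4 and Aldh1a2 most, with as few as 12 and 5 reads in a library.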
